A study of Mus musculus with 9 samples.

Results

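The 33 genes described here serve cholesterol supply and removal: 18 enzymes of synthesis, 5 genes that control the transcription factors called sterol regulatory element-binding proteins (SREBPs), 4 genes of sterol transport and storage, 5 genes of the liver X receptors (LXRs) and cholesterol efflux, and Lpin1. They were chosen by symbol from the 55291 genes counted in each library, and all 33 passed the filter on low counts that left 15066 genes. The libraries hold RNA of mouse AML (acute myeloid leukaemia) cells with 1 genotype, Trp53(R172H/delta), in which p53 carries the missense change R172H. All 9 libraries share that genotype. In the culture group the cells were grown in vitro, and in the other groups they were recovered from wild-type recipient mice, out of either bone marrow or lungs. Each group has 3 libraries. No age, treatment, time after transfer, number of mice or method of cell isolation is given in the sources used here, and no label ties libraries to separate cultures or mice, so p-values measure the spread between libraries, which may be technical. Not every gene of cholesterol metabolism is described.

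Cells build cholesterol from acetyl-CoA through mevalonate, farnesyl diphosphate, squalene and lanosterol, and most enzymes of that route are activated together by SREBPs. When membranes of the endoplasmic reticulum hold little sterol, the escort protein SCAP carries SREBPs to the Golgi, where they are cut and released to the nucleus; when sterol is plentiful, INSIG proteins hold SCAP back. LXRs sense oxidised sterols and activate exporters such as ABCA1 and ABCG1, and they are well studied in macrophages. Leukaemic blasts are known to draw on both synthesis and uptake of cholesterol.

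Libraries held 27485111 to 38761363 counted reads. Levels are read counts scaled to a common library total (CPM) on library sizes scaled by the TMM method, given per library in replicate order or as mean ± SD with n = 3, and a change is in log2 units with its standard error (SE). The progenitor marker Kit was abundant in every group: Kit was at 1167 ± 42.7 CPM in culture, while bone marrow had 633 ± 59.5 CPM and lung 631 ± 129 CPM. Cd34, also a progenitor marker, was scarce throughout. The culture libraries held 1, 0 and 2 reads of Cd34, and its mean reached only 0.347 CPM for bone marrow and 1.5 CPM for lung. Myb and Gata2, of the same marker list, were abundant and highest in culture. Myb was at 545 ± 12 CPM in culture, while bone marrow had 440.2 ± 21.6 CPM and lung 482 ± 44.4 CPM. Gata2 was at 299 ± 2.63, 52.3 ± 2.86 and 186 ± 22 CPM in the same order. Several other defining markers of the labelled type were nearly absent in culture, which goes against the label to that extent. Itgam and Mpo had 2 reads each over the 3 culture libraries, Cebpa had 0, and the leukocyte marker Ptprc was at 1.62 ± 0.369 CPM. Tissue libraries also held reads of other cells. The summed level of 8 neutrophil markers was 1.14 to 2.46 CPM in culture, while bone marrow had 315, 559.7 and 1936 CPM and lung 78.7, 10.7 and 11.3 CPM. That of 12 macrophage markers was 3.08 to 3.27 CPM in culture, while bone marrow had 14.5 to 24.0 CPM and lung 13.0 to 23.7 CPM, with 3 of the 12 at 0 reads in culture. Alveolar and airway epithelium markers (8 genes) summed to 83.9, 38.7 and 15.3 CPM in lung and to 1.20 CPM or less elsewhere. Bone marrow library 3 and lung library 1 stand apart in this way.

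Cells from either tissue had less RNA of most of these genes than cultured cells. In bone marrow against culture 27 of the 33 genes were lower, 2 were higher and 4 were not called at an adjusted p under 0.05, where 29.8% of all tested genes were lower and 30.7% higher. Their median change was -1.18, against 0.05 over all genes tested. In lung against culture the counts were 27 lower and 2 higher, with 27% of all tested genes lower and 27.9% higher, and medians of -1.02 and 0.02. Between the tissues, 11 of the 33 were higher in lung and 0 lower by edgeR's quasi-likelihood test, where 14.2% of all tested genes were higher and 11.1% lower. At an unadjusted p under 0.05, 15 were higher and 1 lower, and both DESeq2 and limma-voom called 0 lower. In either direction, 29 of the 33 were called in bone marrow and in lung against culture (60.5% and 54.9% of all tested genes), and 11 between the tissues (25.3%). Changes of more than 2-fold were called as lower for 19 genes in bone marrow (12.2% of all genes) and 17 in lung (10.1%), and as higher for 1 in each (12.5% and 10.6%). Between the tissues 0 were called past 2-fold by edgeR in either direction (4.48% of all genes higher and 2.28% lower), the most extreme values being -0.28 and 0.97. By libraries that did not overlap, 28 genes were lower and 2 higher in bone marrow than in culture (32.9% and 34.3% of all genes). In lung against culture 27 were lower and 1 higher (32.9% and 34%), and between the tissues 13 were higher and 0 lower in lung (18.5% and 18.1%). The median change between tissues was 0.15, against -0.01 over all genes tested. All comparisons share groups: bone marrow and lung were set against the same culture libraries, and lung against the same bone marrow libraries. Without bone marrow library 3 and lung library 1, a choice made after seeing the data, 29 and 27 genes were lower than in culture, 1 was higher in each, and 13 were higher in lung than in bone marrow.

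**Figure D1:**
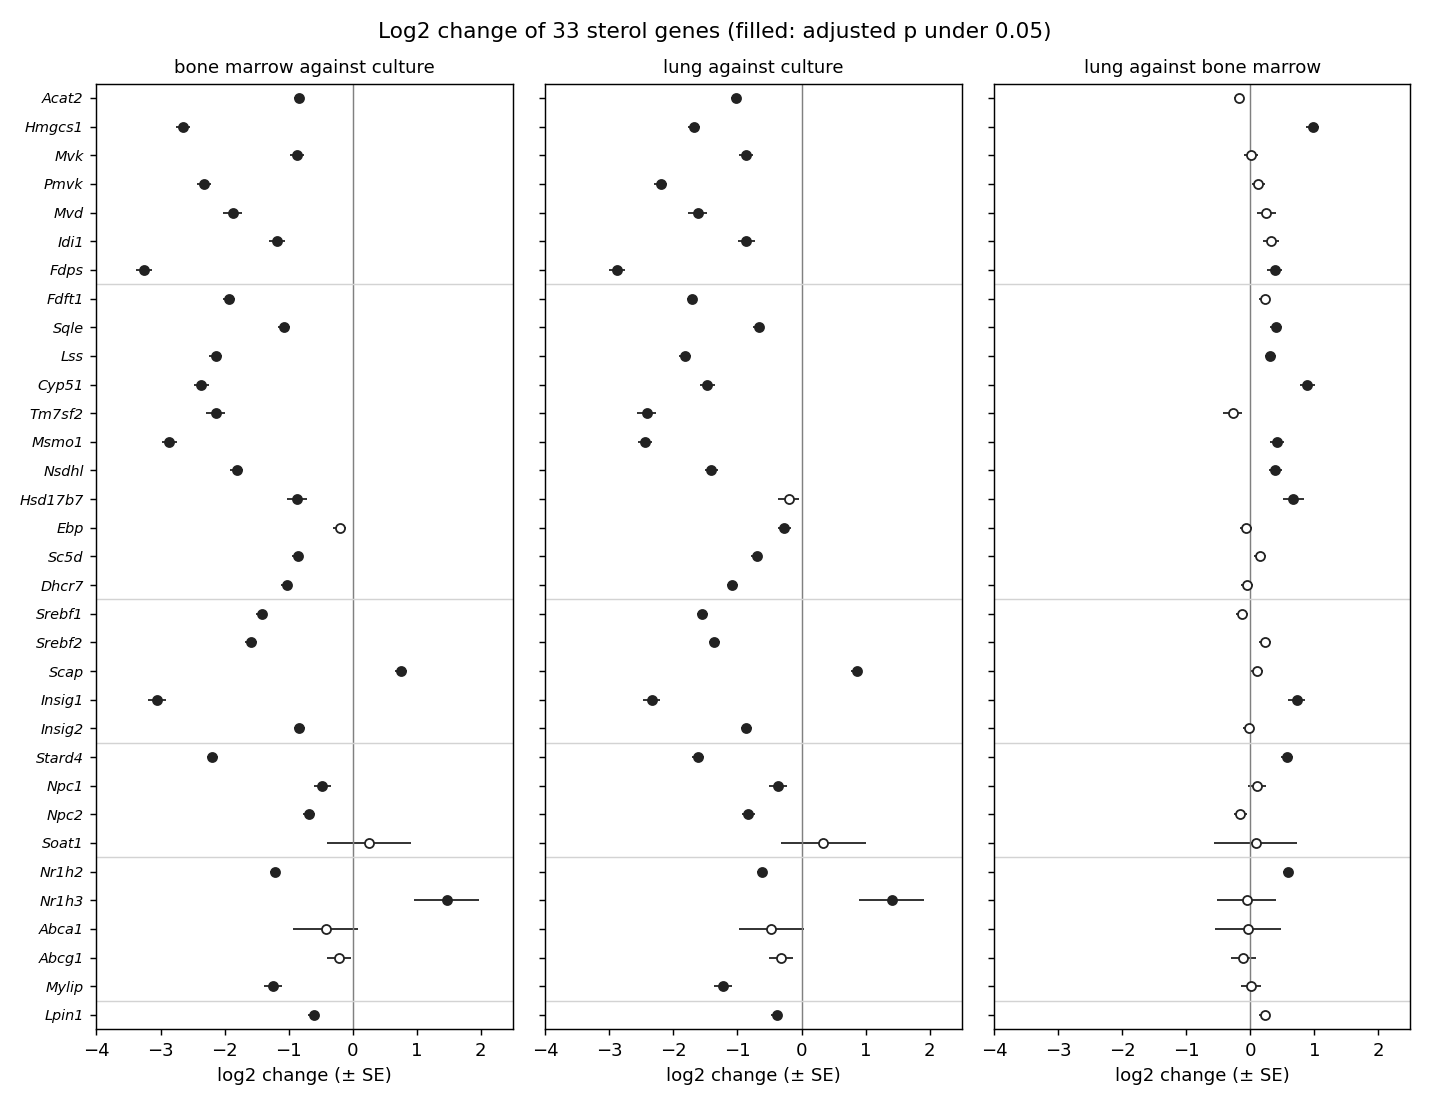
Log2 change (x axis) with its SE of each of the 33 genes (y axis, grouped by role) in the 3 comparisons. Filled points passed at an adjusted p under 0.05. In both comparisons with culture, 27 genes lie below 0 with filled points, and in lung against bone marrow the 11 filled points lie above 0.

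The 18 synthesis enzymes summed to 2759, 2825 and 2896 CPM in culture, while bone marrow had 810.3, 848 and 962 CPM and lung 1068, 1116 and 1046 CPM. The mean sum in bone marrow was 30.9% of the culture mean and that in lung 38.1%. Of the 18, 17 were lower in bone marrow than in culture and 17 lower in lung than in culture, 13 and 12 of them more than 2-fold; 0 were higher in either comparison by edgeR's test, at an unadjusted p under 0.05, or by DESeq2 or limma-voom. Of all tested genes, 29.8% were lower in bone marrow and 27% in lung, with 12.2% and 10.1% lower by more than 2-fold. The enzyme that was not called was Ebp in bone marrow and Hsd17b7 in lung. In bulk RNA, fewer cells expressing a gene and less RNA per cell cannot be told apart.

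Among the enzymes that make and use mevalonate, all 7 were lower in both tissues than in culture. Of all tested genes, 29.8% were lower in bone marrow and 27% in lung. Hmgcs1, whose product joins acetoacetyl-CoA and acetyl-CoA into HMG-CoA, was at 275, 284 and 283 CPM in culture, while bone marrow had 44.2, 38.3 and 51.9 CPM and lung 89.6, 92.5 and 80.8 CPM. The 3 groups did not overlap, and lung lay between the others. The change was -2.65 ± 0.11 in bone marrow (adjusted p = 4.76e-10) and -1.68 ± 0.10 in lung (adjusted p = 2.88e-08) against culture, and 0.97 ± 0.10 in lung against bone marrow (adjusted p = 3.41e-05). Fdps (chr3:89093588-89101959, minus strand, GRCm38), which makes the farnesyl diphosphate used for sterols and for protein prenylation, had the largest fall of the 33 in both tissues. It was at 175, 174 and 195 CPM in culture, while bone marrow had 18.4, 16.4 and 21.8 CPM and lung 21.5, 24.8 and 27.5 CPM. Every culture library was far above every tissue library, while lung library 1 lay within the bone marrow range. It changed by -3.26 ± 0.12 (9.59-fold lower) and -2.88 ± 0.12 (7.36-fold lower) against culture, and its 0.38 ± 0.12 rise in lung against bone marrow (adjusted p = 0.0311) was lost in 10 of 21 alternative settings, among them fits without culture library 1 or 2, bone marrow library 1 or 2, or lung library 2 or 3. The predicted gene Gm43738 shares 26.7% of the exon length of Fdps on the same strand and was listed at 0 CPM in culture and bone marrow, with a lung mean of 0.0217 CPM.

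Of the 5 other mevalonate genes, Pmvk fell the most. This kinase gene, which acts on phosphomevalonate, was at 136 ± 4.73 CPM in culture, while bone marrow had 27.3 ± 0.391 CPM and lung 29.6 ± 4.34 CPM, and no difference between the tissues passed (change 0.12 ± 0.10, adjusted p = 0.436). Mvd, the decarboxylase of the next step, was at 41.6 ± 1.23, 11.4 ± 2.37 and 13.6 ± 1.86 CPM in the 3 groups (culture, bone marrow, lung). Acat2, a cytosolic thiolase at the entry of the route, Mvk, the mevalonate kinase, and Idi1, the isomerase that makes dimethylallyl diphosphate, had smaller changes, which lay between -1.18 and -0.84 in bone marrow and between -1.02 and -0.86 in lung. In lung against bone marrow the difference was 0.01 ± 0.11 for Mvk and -0.18 ± 0.08 for Acat2, and neither passed (adjusted p = 0.978 and 0.126); without bone marrow library 1 Acat2 passed as lower in lung (-0.23, adjusted p = 0.0447). Idi1 was higher in all 3 lung libraries (18.3, 18.7 and 18.6 CPM) than in bone marrow (11.8, 15.5 and 17.3 CPM) but did not pass (0.32 ± 0.13, adjusted p = 0.0865), nor did Mvd (0.25 ± 0.15, adjusted p = 0.232). Without bone marrow library 3, both passed.

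Of the 11 enzymes from squalene onward, 10 were lower than in culture in each tissue, and 6 were higher in lung than in bone marrow. Over all tested genes, 29.8% were lower in bone marrow and 27% in lung than in culture, and 14.2% were higher between the tissues. Msmo1, which removes methyl groups from the sterol ring, was at 331, 339.6 and 349 CPM in culture, while bone marrow had 41.4, 46.3 and 52.7 CPM and lung 71.0, 62.9 and 53.5 CPM. Culture lay well above both tissues, and the lowest lung library was just above the highest bone marrow library. Its change against culture was -2.86 ± 0.11 in bone marrow (adjusted p = 4.72e-10) and -2.44 ± 0.11 in lung (adjusted p = 2.52e-09), and lung exceeded bone marrow by 0.42 ± 0.11 (adjusted p = 0.0141), a call lost without lung library 1 or 2 and with only the 6 tissue libraries fitted (adjusted p = 0.053). Cyp51, the lanosterol demethylase, was at 311, 323 and 335 CPM in culture, while bone marrow had 55.8, 55.7 and 77.4 CPM and lung 125, 119 and 107 CPM. No groups overlapped. It changed by -2.36 ± 0.12 in bone marrow and -1.47 ± 0.12 in lung against culture, and by 0.89 ± 0.12 between the tissues (adjusted p = 0.000255).

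Sqle, the squalene epoxidase that is a flux-controlling step of the route, had smaller changes than Msmo1 and Cyp51. It was at 340.5, 355 and 353 CPM in culture, while bone marrow had 147, 163 and 189 CPM and lung 214, 233 and 213 CPM, with no overlap. Its change was -1.07 ± 0.09 in bone marrow and -0.67 ± 0.09 in lung against culture, and 0.40 ± 0.09 in lung against bone marrow (adjusted p = 0.00659). Lss, the cyclase that makes lanosterol, changed by -2.14 ± 0.10 and -1.82 ± 0.10 against culture, and Nsdhl, a decarboxylating sterol dehydrogenase, by -1.81 ± 0.10 and -1.41 ± 0.10. In lung against bone marrow Lss rose by 0.31 ± 0.09 (adjusted p = 0.027) and Nsdhl by 0.39 ± 0.10 (adjusted p = 0.0106). The Lss call was lost without culture library 1 or 2, bone marrow library 2 or lung library 1 or 2, and that of Nsdhl when bone marrow library 3 and lung library 1 were both left out. With only the 6 libraries of the tissues fitted, neither passed (adjusted p = 0.0804 for Lss and 0.0523 for Nsdhl). Fdft1, the squalene synthase, was at 132 ± 5.97, 34.6 ± 1.38 and 40.3 ± 2.35 CPM in the 3 groups (culture, bone marrow, lung). All lung libraries were above all bone marrow libraries, yet Fdft1 did not pass between the tissues (0.22 ± 0.08, adjusted p = 0.0737); DESeq2 called it (adjusted p = 0.0392). Its exons overlap those of Ctsb on the opposite strand over 18.3% of their length, and the counting is labelled unstranded, so reads there cannot be assigned to strand.

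Hsd17b7, a keto-reductase of the sterol demethylation steps, was the enzyme whose lung libraries overlapped those of culture. It was at 24.7, 29.1 and 27.2 CPM in culture, while bone marrow had 13.7, 11.4 and 19.2 CPM and lung 24.4, 25.2 and 21.0 CPM. Lung overlapped culture and lay above every bone marrow library. The change was -0.87 ± 0.16 in bone marrow against culture (adjusted p = 0.00047), -0.20 ± 0.16 in lung against culture (adjusted p = 0.311) and 0.67 ± 0.16 between the tissues (adjusted p = 0.0102). Tm7sf2, a sterol reductase gene, went the other way between the tissues without passing (-0.28 ± 0.15, adjusted p = 0.187); it was at 32.4 ± 2.12 CPM in culture, while bone marrow had 7.32 ± 1.54 CPM and lung 6.06 ± 0.191 CPM, and part of its exons (12.1%) is shared with Vps51 on the same strand.

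The last enzymes of the route had smaller changes than Hmgcs1, Fdps or Msmo1. Ebp, the sterol isomerase, was at 60.4, 60.0 and 66.5 CPM in culture, while bone marrow had 49.1, 54.7 and 58.6 CPM and lung 46.4, 51.6 and 57.0 CPM. Its change of -0.20 ± 0.10 in bone marrow did not pass (adjusted p = 0.0974; without bone marrow library 3 and lung library 1, -0.26, adjusted p = 0.0368) and that of -0.27 ± 0.10 in lung did (adjusted p = 0.0355), though the latter was lost in 8 of 21 settings, among them fits without culture library 3, lung library 1 or lung library 2 and upper-quartile scaling. Sc5d, a sterol desaturase, changed by -0.86 ± 0.09 and -0.70 ± 0.09 and Dhcr7, the reductase that makes cholesterol from its direct precursor, by -1.03 ± 0.09 and -1.08 ± 0.09 in bone marrow and lung against culture. The differences of Ebp, Sc5d and Dhcr7 between the tissues were -0.07 ± 0.10, 0.15 ± 0.09 and -0.05 ± 0.09, none of which passed (adjusted p = 0.655, 0.239 and 0.729).

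**Figure D2:**
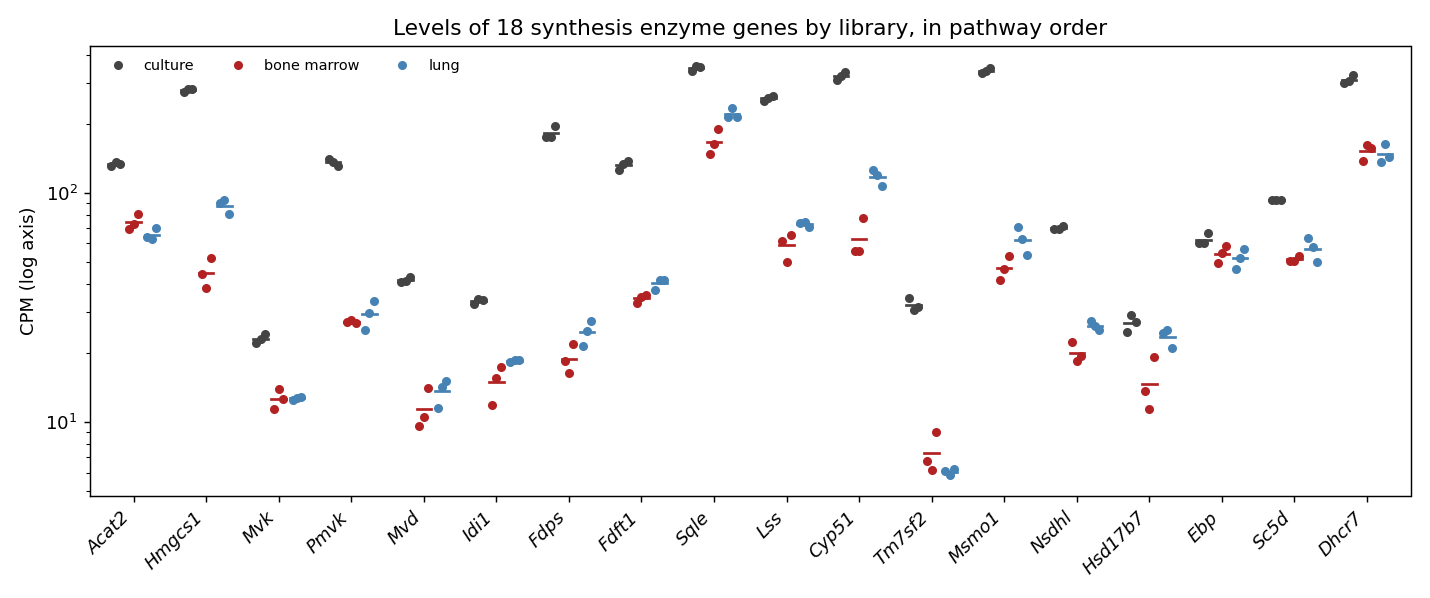
CPM on a log axis (y) of the 18 synthesis enzyme genes (x, in the order of the pathway), with 1 point per library and a bar at the group mean. Heights are to be compared within a gene, since CPM is not per length; Hmgcs1 and Cyp51 show lung between the other groups, Hsd17b7 shows lung beside culture, and Ebp shows little separation.

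The order of the enzymes by level per length differed between groups. In CPM per kilobase of exon, the highest enzyme in culture was Pmvk at 79.3 ± 2.76, followed by Cyp51 at 73.1 ± 2.74 and Sqle at 63.0 ± 1.41. In bone marrow it was Sqle at 30.0 ± 3.85, followed by Acat2 at 29.3 ± 2.37 and Dhcr7 at 26.1 ± 2.23. Differences between enzymes were not tested. In lung Sqle stood at 39.7 ± 2.07, above Cyp51 at 26.5 ± 2.16 and Acat2 at 25.8 ± 1.54 CPM per kilobase. These lengths pool the exons of all annotated transcripts.

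Genes that control SREBP did not all move the same way. Srebf1 and Srebf2, which encode the SREBPs of fatty acid and of cholesterol genes, both fell. Srebf2 was at 679, 687 and 719.6 CPM in culture, while bone marrow had 257, 216 and 219.7 CPM and lung 289.8, 279.9 and 245 CPM. Srebf1 was at 694, 684 and 699 CPM in culture, while bone marrow had 273, 237 and 265 CPM and lung 258, 213 and 237 CPM. Both were lower in every tissue library than in any culture library, and the tissues overlapped. Srebf2 changed by -1.59 ± 0.09 in bone marrow and -1.36 ± 0.09 in lung against culture (adjusted p = 9.95e-09 and 6.15e-08), and Srebf1 by -1.42 ± 0.09 and -1.55 ± 0.09 (adjusted p = 1.91e-08 and 1.4e-08). Between the tissues the difference was 0.23 ± 0.09 for Srebf2 (adjusted p = 0.0674) and -0.13 ± 0.09 for Srebf1 (adjusted p = 0.281), neither of which passed; Srebf2 did pass in 5 of 21 settings, among them DESeq2 and fits without bone marrow library 1 or lung library 3.

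The balance of the 2 SREBP genes was also read within each library, which needs no scaling. Per kilobase of exon, Srebf1 stood to Srebf2 at 1.30, 1.27 and 1.24 in culture, 1.36, 1.40 and 1.54 in bone marrow and 1.14, 0.970 and 1.23 in lung. The ranges did not overlap. The mean log2 ratio was lower in lung than in bone marrow (difference -0.37, two-sided exact permutation p = 0.1, n = 3 per group), and 0.1 is the smallest p that 3 against 3 libraries can give. Counts per gene do not separate the transcripts of Srebf1 that start at different first exons.

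Scap, the escort of SREBPs, moved against its partners. It was at 102, 99.0 and 98.7 CPM in culture, while bone marrow had 177, 181 and 151 CPM and lung 186, 195 and 162 CPM. Every tissue library was above every culture library. Scap rose by 0.76 ± 0.09 in bone marrow (1.70-fold, adjusted p = 8.99e-06) and by 0.86 ± 0.09 in lung (1.81-fold, adjusted p = 4.27e-06) against culture, and no difference between the tissues passed (0.10 ± 0.09, adjusted p = 0.469). Exons of the unclassified transcript 5830462I19Rik overlap 13.2% of those of Scap on the opposite strand, and it was at 0.290 to 0.861 CPM on average in the 3 groups.

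The INSIG genes, which encode the anchors that hold SCAP back, fell to different extents. Insig1, itself an SREBP target, was at 154, 156 and 167 CPM in culture, while bone marrow had 17.5, 20.4 and 19.1 CPM and lung 36.7, 32.9 and 24.2 CPM. Again the 3 groups were separate, with lung between the others. It changed by -3.06 ± 0.14 in bone marrow and -2.34 ± 0.13 in lung against culture (adjusted p = 1.37e-09 and 1.57e-08) and by 0.72 ± 0.13 between the tissues (adjusted p = 0.00199). Insig2 was at 50.6 ± 2.81 CPM in culture, while bone marrow had 28.5 ± 1.59 CPM and lung 27.9 ± 1.13 CPM, a change of -0.83 ± 0.09 and -0.86 ± 0.09 against culture, and its difference of -0.03 ± 0.09 between the tissues did not pass (adjusted p = 0.827).

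The more abundant INSIG transcript was not the same in the groups. Per kilobase of exon, Insig1 stood to Insig2 at 3.62, 3.45 and 3.51 in the culture libraries, at 0.733, 0.798 and 0.717 in bone marrow and at 1.45, 1.39 and 0.953 in lung. Insig1 thus exceeded Insig2 in every culture library and was below it in every bone marrow library, and 2 of 3 lung libraries had more Insig1. The mean log2 ratio differed by -2.24 between bone marrow and culture, by -1.50 between lung and culture and by 0.73 between lung and bone marrow. Each two-sided exact permutation p was 0.1, the smallest possible (n = 3 per group, 6 such comparisons in all for the SREBP and INSIG pairs).

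**Figure D3:**
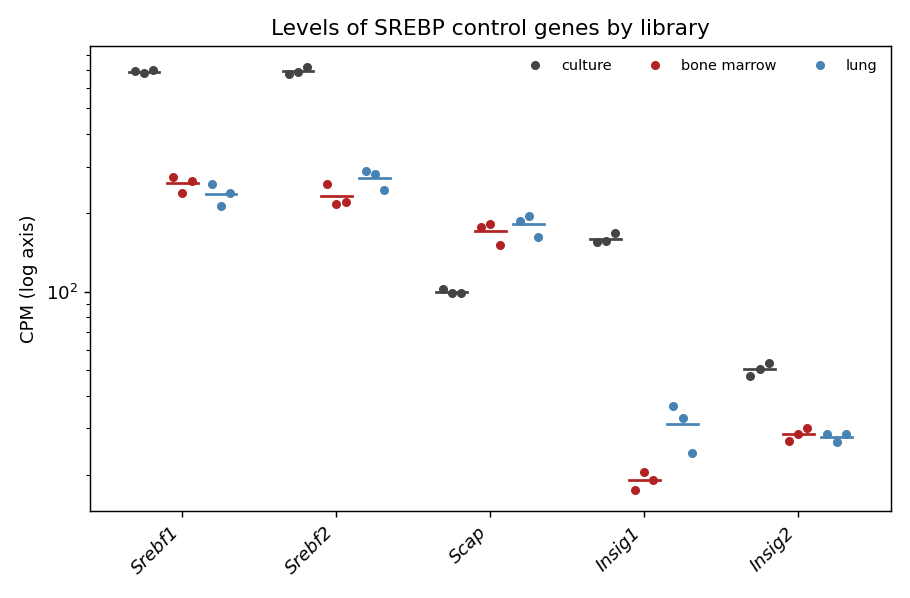
CPM on a log axis (y) of the 5 SREBP control genes (x), with 1 point per library and a bar at the group mean. Srebf1, Srebf2, Insig1 and Insig2 are highest in culture, whereas Scap is lowest there. Heights are to be compared within a gene.

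Promoter sequences were examined for what these genes share beside their names, since most of them moved together. RefSeq windows of 300 bases (GRCm38.p6), from 250 bases before to 50 after a gene's start, were matched for 27 of the 33 genes, 36 windows in all; Fdps, Fdft1, Sqle, Stard4, Npc1 and Abcg1 were not matched. Both strands were searched for the sterol regulatory element TCACNCCAC, its shortened forms TCACNCCA and CACNCCAC (both lie inside it), the NF-Y box CCAAT, the E-box CACGTG and the LXR element called DR4 (the half-site AGGTCA repeated after 4 bases). The windows printed here, except that of Scap, hold a form of the sterol element and represent genes that fell against culture. Scap, 1 of 2 genes called higher than in culture, holds only an E-box. The other, Nr1h3, had no motif match and is not printed. Acat2, which fell and holds CACNCCAC, is not printed either. Printed windows are given 5′ to 3′ on the gene's strand, with every motif match in capitals (on the opposite strand CCAAT reads ATTGG).
Hmgcs1 (chr13:119690101-119690400, plus strand): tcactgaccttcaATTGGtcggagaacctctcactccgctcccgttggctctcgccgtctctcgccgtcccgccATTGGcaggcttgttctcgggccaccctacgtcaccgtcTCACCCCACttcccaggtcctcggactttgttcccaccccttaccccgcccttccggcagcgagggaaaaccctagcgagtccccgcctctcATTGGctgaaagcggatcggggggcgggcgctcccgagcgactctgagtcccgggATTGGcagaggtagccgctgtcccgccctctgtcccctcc
Msmo1 (chr8:64733529-64733828, minus strand): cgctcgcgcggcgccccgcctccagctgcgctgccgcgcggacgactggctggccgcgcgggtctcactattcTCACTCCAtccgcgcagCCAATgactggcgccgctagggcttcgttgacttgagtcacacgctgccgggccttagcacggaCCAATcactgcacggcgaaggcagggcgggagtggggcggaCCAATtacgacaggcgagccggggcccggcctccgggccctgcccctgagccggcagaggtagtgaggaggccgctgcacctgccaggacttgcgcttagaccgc
Insig1 (chr5:28071162-28071461, plus strand): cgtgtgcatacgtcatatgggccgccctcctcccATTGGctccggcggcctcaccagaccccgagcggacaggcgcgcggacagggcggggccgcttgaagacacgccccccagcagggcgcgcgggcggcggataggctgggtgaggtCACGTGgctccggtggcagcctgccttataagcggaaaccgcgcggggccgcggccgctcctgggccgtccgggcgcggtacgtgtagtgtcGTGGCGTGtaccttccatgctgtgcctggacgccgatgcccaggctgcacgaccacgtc
Srebf2 (chr15:82147019-82147318, plus strand): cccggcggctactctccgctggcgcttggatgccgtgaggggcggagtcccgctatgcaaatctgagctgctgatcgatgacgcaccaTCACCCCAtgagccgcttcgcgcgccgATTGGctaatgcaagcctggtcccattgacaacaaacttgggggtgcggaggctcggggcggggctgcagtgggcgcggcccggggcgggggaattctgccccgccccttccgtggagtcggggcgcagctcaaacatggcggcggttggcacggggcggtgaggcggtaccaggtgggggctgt
Scap (chr9:110333038-110333337, plus strand): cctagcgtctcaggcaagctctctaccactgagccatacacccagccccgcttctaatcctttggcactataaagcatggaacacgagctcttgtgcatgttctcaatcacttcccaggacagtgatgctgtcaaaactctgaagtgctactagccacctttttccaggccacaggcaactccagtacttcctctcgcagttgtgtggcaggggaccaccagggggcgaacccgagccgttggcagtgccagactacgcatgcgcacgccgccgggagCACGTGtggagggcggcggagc

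The full sterol element was found in Hmgcs1 alone of the 27, at 137 bases before the start, and in 1.44% of the 27025 genes with a window. Those 27025, called all genes here, are not limited to the 15066 genes that passed the filter on low counts, whereas all of the 27 passed it. TCACNCCA was found in Hmgcs1, Msmo1 and Srebf2 (11.1% of the 27, against 4.97% of all genes), and CACNCCAC in Acat2, Hmgcs1 and Insig1 (11.1% against 7.12%). The NF-Y box was far more common. It was present in 21 of the 27 genes (77.8%, against 41.1% of all genes and 37.4% of all 32851 windows) and in 14 of the 15 enzymes with a window. The genes without one were Acat2, Scap, Nr1h2, Nr1h3, Abca1 and Lpin1. E-boxes were found in 6 of 27, among them Insig1 and Scap, against 8.09% of all genes, and the LXR element in 0 of 27 and 0.0148% of all genes. A match is a description of these letters only, no match says only that the letters are not in the window, and some genes have more than 1 window.

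**Figure D4:**
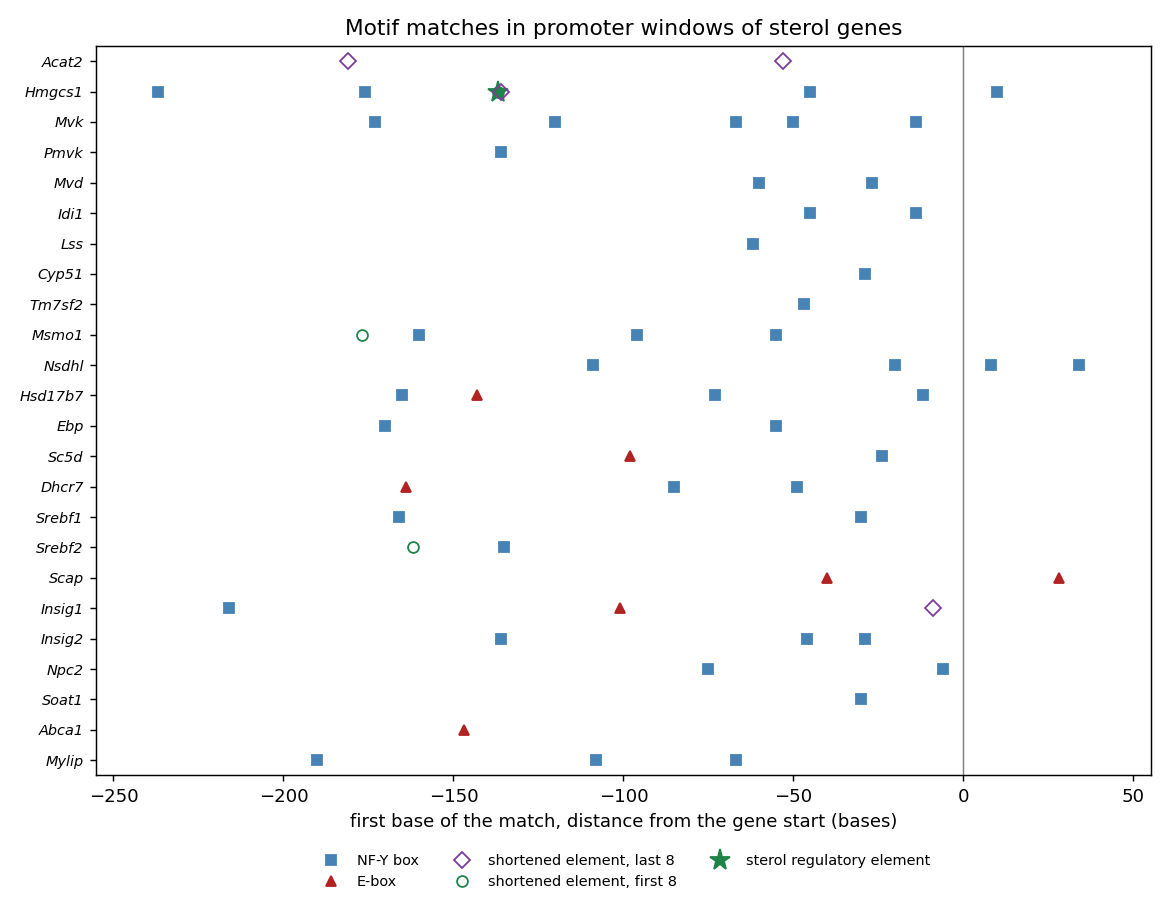
Position of motif matches (x, in bases from the gene start, negative before it) in the promoter windows of the genes with any match (y). NF-Y boxes (squares) appear in 21 genes and the full sterol element (star) in Hmgcs1 alone, where the shortened forms are partly hidden by it.

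Of 4 sterol transport and storage genes, 3 were lower than in culture in each tissue (29.8% and 27% of all tested genes). The largest change was that of Stard4. Stard4, a carrier of cholesterol between membranes and a known SREBP target, was at 114, 125 and 126 CPM in culture, while bone marrow had 25.5, 29.5 and 24.9 CPM and lung 37.6, 40.6 and 40.4 CPM. The groups were separate, with lung between the others, as for Hmgcs1 and Insig1. It changed by -2.19 ± 0.09 and -1.62 ± 0.09 in bone marrow and lung against culture (adjusted p = 9.21e-10 and 1.59e-08) and by 0.57 ± 0.09 between the tissues (adjusted p = 0.000974). Npc1 and Npc2 encode the membrane and the soluble protein that pass cholesterol out of lysosomes. Npc2 changed by -0.68 ± 0.10 and -0.83 ± 0.10 against culture, and Npc1 by -0.47 ± 0.14 and -0.36 ± 0.14 (adjusted p = 0.0102 and 0.0397), the latter call in lung lost in 9 of 21 settings, among them fits without any 1 culture library or without lung library 2 or 3. Neither passed between the tissues (Npc1 0.10 ± 0.14, Npc2 -0.16 ± 0.10, adjusted p = 0.615 and 0.276).

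Soat1, which esterifies cholesterol for storage, was barely detected and its level followed single libraries. It was at 1.74, 1.35 and 1.31 CPM in culture, while bone marrow had 0.773, 0.495 and 3.93 CPM and lung 2.65, 1.60 and 1.30 CPM. Bone marrow library 3, the highest in neutrophil and B cell markers, held most of the bone marrow reads. None of its changes passed (adjusted p = 0.754 and 0.691 for bone marrow and lung against culture, 0.942 between the tissues), and without bone marrow library 3 the change in bone marrow against culture was -1.20 instead of 0.26 and passed (adjusted p = 0.0157), and that in lung against bone marrow was 1.52 and passed (adjusted p = 0.0106). The part of other cells in these values was not tested.

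LXR and efflux genes did not move as a block. Nr1h2 (chr7:44549616-44553951, minus strand, GRCm38), the gene of the widely expressed receptor LXR-beta, was at 111, 110.4 and 106 CPM in culture, while bone marrow had 50.9, 43.7 and 47.0 CPM and lung 68.3, 71.3 and 73.1 CPM. Each group was separate. It changed by -1.21 ± 0.08 in bone marrow and -0.62 ± 0.08 in lung against culture (adjusted p = 5.63e-08 and 2.72e-05) and by 0.59 ± 0.08 between the tissues (adjusted p = 0.000354). Nr1h3, the gene of LXR-alpha, which macrophages express strongly, was near the detection limit throughout. It had 2, 9 and 12 reads in culture, 19, 24 and 35 in bone marrow and 30, 12 and 29 in lung, or 0.259 ± 0.177, 0.726 ± 0.153 and 0.698 ± 0.274 CPM. It was higher against culture in bone marrow (1.47 ± 0.51, adjusted p = 0.0234) and in lung (1.41 ± 0.51, adjusted p = 0.0315), and these calls were lost without culture library 1 or 2, and the first without bone marrow library 3 and the second without lung library 1 or 3. Of 12 macrophage markers 10 were tested, and against culture 8 were higher in bone marrow (30.7% of all tested genes). In lung 9 of these markers were higher and 1 lower than in culture (27.9% and 27% of all tested genes). Their summed level went from 3.18 ± 0.0952 CPM in culture to 17.9 ± 5.29 and 18 ± 5.33 CPM in bone marrow and lung, and their part in the Nr1h3 result was not tested. Per kilobase of exon Nr1h2 exceeded Nr1h3 in each group, with 32.5 against 0.103 CPM in culture, 14.1 against 0.289 in bone marrow and 21.1 against 0.278 in lung.

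The cholesterol exporters did not pass in any comparison when all 9 libraries were fitted without a block. Abca1 (chr4:53030787-53159895, minus strand, GRCm38), which loads cholesterol onto apolipoprotein A-I, was at 11, 10.3 and 8.98 CPM in culture, while bone marrow had 13.7, 4.86 and 4.13 CPM and lung 11.8, 5.48 and 4.49 CPM. Library 1 of each tissue was above every culture library and the other 2 of each tissue were below every culture library. Changes were -0.42 ± 0.51, -0.47 ± 0.51 and -0.04 ± 0.51 (adjusted p = 0.501 and 0.469 for bone marrow and lung against culture, 0.958 between the tissues). Without bone marrow library 1 the change in bone marrow against culture was -1.17 and passed (adjusted p = 0.0192), and without bone marrow library 3 and lung library 1 that in lung against culture was -1.01 and passed (adjusted p = 0.0402). Abcg1, which exports sterol to larger lipoproteins, was at 9.20 ± 2.06, 7.95 ± 1.38 and 7.38 ± 0.519 CPM in the 3 groups (culture, bone marrow, lung), with changes of -0.21 ± 0.19 and -0.32 ± 0.19 against culture that did not pass (adjusted p = 0.341 and 0.167) and of -0.11 ± 0.19 between the tissues (adjusted p = 0.713). In lung against culture it passed without culture library 2 (-0.51, adjusted p = 0.0428).

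Mylip, an LXR target whose ubiquitin ligase (IDOL) degrades lipoprotein receptors, fell in both tissues. It was at 14.2, 14.0 and 14.1 CPM in culture, while bone marrow had 5.47, 6.97 and 5.54 CPM and lung 6.31, 6.30 and 5.47 CPM. Every tissue library was below every culture library by more than the spread of either group. It changed by -1.24 ± 0.14 and -1.23 ± 0.14 against culture (adjusted p = 6.93e-06 and 9.88e-06) and its difference of 0.01 ± 0.15 between the tissues did not pass (adjusted p = 0.969). Lpin1, a phosphatidate phosphatase of lipid synthesis that also restrains SREBP in the nucleus, was at 86.0 ± 2.08 CPM in culture, while bone marrow had 56.3 ± 2.46 CPM and lung 65.6 ± 4.32 CPM (changes of -0.61 ± 0.08 and -0.39 ± 0.08 against culture, adjusted p = 2.48e-05 and 0.00118). Its difference of 0.22 ± 0.08 between the tissues did not pass (adjusted p = 0.0643), although the lung libraries were all above those of bone marrow; it passed without bone marrow library 1 (0.25, adjusted p = 0.0441) and by DESeq2 (adjusted p = 0.0269).

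**Figure D5:**
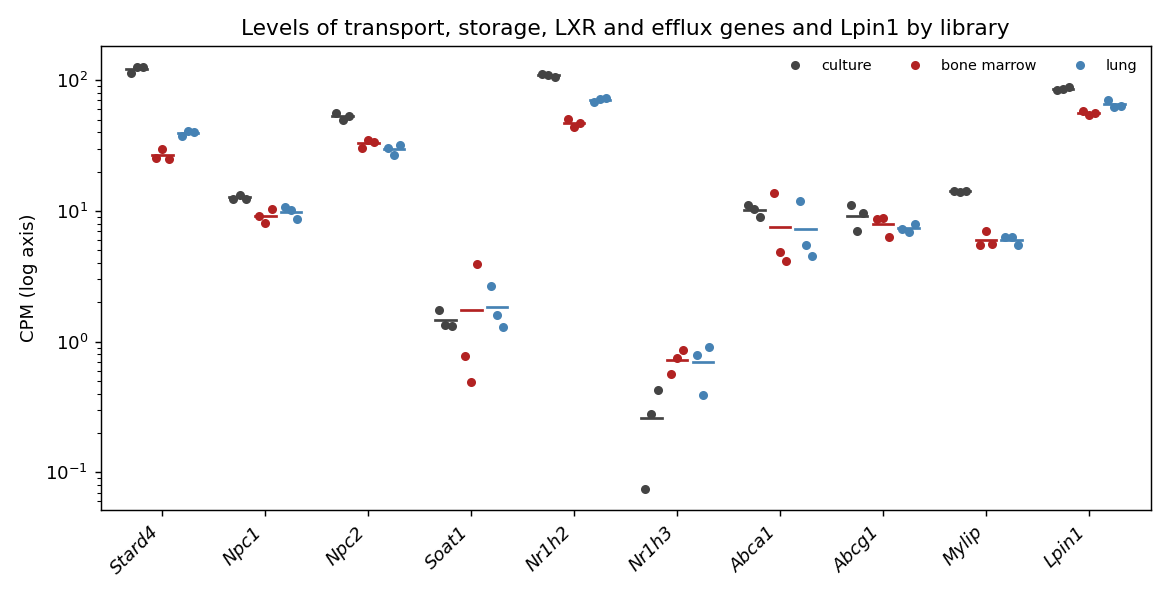
CPM on a log axis (y) of the transport, storage, LXR and efflux genes and Lpin1 (x), with 1 point per library and a bar at the group mean. Stard4 and Nr1h2 show 3 separate groups, while Abca1 shows library 1 of each tissue above the culture libraries and Soat1 a single high bone marrow library.

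Neighbouring genes of lipid metabolism, from 7 lists of 80 genes of which 72 were tested, were mixed in direction. In bone marrow against culture 31 were lower and 16 higher, in lung against culture 29 lower and 20 higher, and between the tissues 9 were higher in lung and 1 lower, with medians of -0.16, -0.07 and 0.06. Over all tested genes 29.8% were lower and 30.7% higher in bone marrow than in culture, 27% and 27.9% in lung, and 14.2% were higher and 11.1% lower between the tissues, and the counts of each list stand beside those shares. Without bone marrow library 3 and lung library 1, 11 were higher and 5 lower in lung than in bone marrow. The 14 fatty acid and other SREBP target genes had medians of -1.10 in bone marrow and -1.09 in lung against culture, with 11 lower in each tissue. Scd2, a desaturase that makes monounsaturated fatty acids, was at 6019, 6197 and 6507 CPM in culture, while bone marrow had 489, 377 and 431 CPM and lung 412, 303 and 367 CPM. Scd1, its paralog, changed by -4.30 ± 0.18 and -3.90 ± 0.18. Fasn, the fatty acid synthase, did not follow them. It was at 351, 360.5 and 363 CPM in culture, while bone marrow had 357, 288 and 269 CPM and lung 456, 463 and 392 CPM, and was higher in lung than in culture (0.29 ± 0.10, adjusted p = 0.0286) and than in bone marrow (0.52 ± 0.10, adjusted p = 0.00319). Aacs, which makes acetoacetyl-CoA for lipid synthesis, also rose in lung against bone marrow (0.36 ± 0.08, adjusted p = 0.00617).

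Isoprenoid branch genes, which use the same diphosphates for prenylation, dolichol and coenzyme Q, were higher than in culture in 6 of 14 members in each tissue, and lower in 2 of 14 in bone marrow and 1 of 14 in lung (all tested genes: 30.7% and 27.9% higher, 29.8% and 27% lower). Pdss1, which builds the tail of coenzyme Q, rose from 15.9 ± 1.41 CPM in culture to 41.8 ± 2.65 CPM in bone marrow and to 38.9 ± 2.88 CPM in lung (1.40 ± 0.11 and 1.29 ± 0.11, adjusted p = 1.38e-07 and 4.09e-07). Fntb, a farnesyltransferase subunit, changed by -1.05 ± 0.13 and -1.07 ± 0.13. Between the tissues Icmt, which methylates prenylated proteins, rose by 0.44 ± 0.10 and Rabggta, a Rab prenyltransferase subunit, by 0.25 ± 0.08 in lung (adjusted p = 0.00619 and 0.0393).

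Genes of SREBP processing and of sterol-triggered degradation in the endoplasmic reticulum changed by less than 2-fold. In bone marrow 5 of 12 were higher and 2 lower than in culture, and in lung 5 higher and 3 lower, where all tested genes were 30.7% higher and 29.8% lower in bone marrow and 27.9% and 27% in lung. Ufd1 (0.53 ± 0.08) and Rnf145 (0.52 ± 0.09) rose and Aup1 (-0.53 ± 0.11) fell in bone marrow. In lung Ube2g2 (0.74 ± 0.09) and Mbtps2, a protease that cuts SREBPs (0.54 ± 0.13), rose, and Rnf139 and Erlin2 fell (-0.30 ± 0.10 and -0.30 ± 0.09). Between the tissues only Syvn1, a ubiquitin ligase of the endoplasmic reticulum, passed (0.24 ± 0.08, adjusted p = 0.0453).

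For uptake, Scarb1, the receptor for high-density lipoprotein, fell from 274 ± 4.24 CPM in culture to 136 ± 11.7 CPM in bone marrow and to 144 ± 12.8 CPM in lung (-1.01 ± 0.09 and -0.93 ± 0.09). Lipa, the lysosomal acid lipase that frees cholesterol from its esters, rose from 67.4 ± 4.18 CPM to 141 ± 16.8 and 117 ± 25.9 CPM (1.06 ± 0.14 and 0.79 ± 0.14, adjusted p = 4.07e-05 and 0.000484). In the list of uptake and lysosomal release, 9 of 11 genes were tested, with 2 higher and 3 lower in bone marrow than in culture and 4 higher and 2 lower in lung (all tested genes: 30.7% and 29.8% in bone marrow, 27.9% and 27% in lung). Between the tissues 3 were higher in lung (14.2% of all tested genes). Lrp8, a receptor of the lipoprotein receptor family, was lower in bone marrow than in culture (-0.64 ± 0.11) and higher in lung than in bone marrow (0.50 ± 0.11, adjusted p = 0.00711). The other 2 genes higher in lung than in bone marrow were Cd36 and Lrp1, named after their values were seen. Cd36, a scavenger receptor, was at 1.11 to 1.35 CPM in culture and 1.49 to 1.58 CPM in bone marrow, and its lung libraries had 14.3, 5.97 and 5.63 CPM (2.5 ± 0.33 between the tissues, adjusted p = 0.000267). Lrp1, a large endocytic receptor, had 0 reads in culture, 0.714, 0.403 and 1.07 CPM in bone marrow and 3.8, 1.24 and 1.58 CPM in lung (1.59 ± 0.49 between the tissues, adjusted p = 0.0362). Both were highest in lung library 1, which also had the most reads of epithelium markers. Among the lung libraries it was also highest in summed markers of endothelium (154, 129 and 149 CPM), macrophages (23.7, 13 and 17.4 CPM) and stroma (56.7, 54.5 and 31.3 CPM). The endothelium sum was mostly Egfl7, at 111, 115 and 132 CPM in lung and 111 ± 1.5 CPM in culture. Most of the stroma sum was Dcn, at 51.7, 53.1 and 29.7 CPM in lung and 30.8 ± 2.28 CPM in culture. Those sums therefore do not measure other cells alone. The other endothelium markers were each highest in lung library 1 among the lung libraries. Lung library 1 was not highest in T and NK cell markers (1.96, 1.92 and 2.88 CPM). The part of other cells in the Cd36 and Lrp1 values was not tested. Lrpap1, a chaperone of lipoprotein receptors, was lower in lung than in culture (-0.28 ± 0.09).

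Of 10 genes of non-vesicular transport, 6 were lower and 1 higher in bone marrow than in culture, and 7 lower and 1 higher in lung. Over all tested genes 29.8% were lower and 30.7% higher in bone marrow, and 27% and 27.9% in lung. Gramd1c changed by -1.20 ± 0.11 and -1.30 ± 0.11, Osbpl8 by -1.08 ± 0.11 in bone marrow and Osbpl2 by -1.16 ± 0.09 in lung, while Gramd1b rose by 0.37 ± 0.10 and 0.31 ± 0.10. Osbpl1a was the 1 member lower in lung than in bone marrow (-0.48 ± 0.11, adjusted p = 0.00598). Among LXR partners and other LXR targets (7 of 8 tested), 2 were higher and 3 lower in bone marrow than in culture, and 3 higher and 1 lower in lung, beside the same shares over all tested genes (30.7% and 29.8%, then 27.9% and 27%). Smpdl3a, an LXR-induced phosphodiesterase, changed by -1.37 ± 0.13 and -1.46 ± 0.13, Lpcat3 by -0.35 ± 0.07 in bone marrow, and Abcg4, a sterol exporter, rose by 0.27 ± 0.09 and 0.31 ± 0.09, as did the coactivator gene Ncoa5 (0.25 ± 0.09 and 0.30 ± 0.09). Ncor1, a corepressor, rose in lung against bone marrow (0.29 ± 0.09, adjusted p = 0.0312). Of the storage and oxysterol enzymes 6 of 11 were tested. Of these, 4 were lower than in culture in each tissue (29.8% of all tested genes in bone marrow and 27% in lung). Soat2, the other sterol esterifying enzyme, fell from 22.5 ± 2.55 CPM to 6.41 ± 0.636 and 8.56 ± 1.5 CPM, and the lipid droplet gene Plin3 changed by -1.25 ± 0.10 and -1.21 ± 0.10; between the tissues the difference of Plin3, the most abundant of the list, was 0.05 ± 0.10 and did not pass (adjusted p = 0.762).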

How the data were processed

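Sequencing libraries were made from whole-transcript amplified cDNA (SMART-seq v4 and ThruPLEX, per the labels' protocols). Per the submitters' processing notes, bcl2fastq and STAR were used with mm10, without versions. For the counting tool and annotation, the sources used here give no name. The authors deposited whole-number read counts per gene and library, named as unstranded. Counts were filtered (filterByExpr), scaled by TMM and fitted over all 9 libraries without a block by edgeR's quasi-likelihood test (edgeR 4.0.16, R 4.3.3), with Benjamini-Hochberg adjustment over 15066 genes and calls at an adjusted p under 0.05. SEs were derived from the F statistic. DESeq2 1.42.0 and limma-voom (limma 3.58.1) were alternatives. Levels are CPM, divided by the merged exon length of the gene (GENCODE M21, GRCm38) where given per kilobase. Scripts were tested on simulated data. No pair of libraries agreed within sampling noise.

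The 33 genes and the other lists were chosen with earlier results of these data known. All 33 are described. From each other list and comparison the text names up to 2 called genes per direction with the largest change, among those with at least 10 CPM in the higher group, or the most abundant gene where none was called. Some genes that this rule names are not reported here. Fold changes of genes with few reads depend on a prior count. Promoter windows came from RefSeq. Depth limits genes such as Nr1h3, with 2 to 35 reads per library.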

Additional observations from a re-analysis of the deposited data

How the results depend on the processing

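Of 69 called changes among the 33 genes, 0 reversed under 21 alternative settings, and 8 were lost under a setting other than the test for changes over 1.5-fold. The count higher in lung than in bone marrow was 7 with only the 6 libraries compared, 1 at over 1.5-fold and 8 to 14 when 1 library was left out; the count lower was 0 to 1. Against culture, the count higher was 1 in each tissue under the stricter filter, at over 1.5-fold and without bone marrow library 3 and lung library 1, and 1 to 2 when 1 library was left out. Of the other listed genes, those lower in lung than in bone marrow numbered 3 with upper-quartile scaling, 2 with no filter, 5 without those 2 libraries, 0 at over 1.5-fold and 1 to 4 with 1 library left out, and those higher 1 at over 1.5-fold and 5 to 13 with 1 left out. At over 1.5-fold, 3 were higher and 19 lower in bone marrow than in culture, and 3 higher and 18 lower in lung; with 1 library left out, 12 to 20 were higher and 26 to 32 lower in lung. Scaling moved the median change over all genes from 0.05 to at most 0.12, and upper-quartile scaling moved the higher share of all calls in lung against bone marrow from 56.2% to 46.2%.

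Replicate numbers were not taken as pairs: over all genes, deviations of same-numbered libraries correlated at 0.03 to 0.27 between bone marrow and lung and at -0.06 to 0 for culture with either tissue, and 3 of 6 tissue libraries correlated best with their own number. With the replicate block, 11 of the 33 were higher in lung than in bone marrow (13 with 6 libraries), and 4 other genes were lower there with 6 libraries. Abca1, not called without the block, was called against culture with it in bone marrow over 9 libraries (-0.63, adjusted p = 0.0486) and in lung over 6 (-0.56, adjusted p = 0.0401).

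Direction reversed for 9 uncalled changes, and the cause was not tested. In lung against bone marrow, Abca1 was 0.14 with voom, 0 with the replicate block, 0.02 with the block and 6 libraries, and -0.59 to 0.70 with 1 library left out. Mvk was -0.04 with upper-quartile scaling, -0.02 with library size alone, -0.01 with the stricter filter and voom, and -0.07 to 0.08 with 1 left out. Mylip was -0.04, -0.01 and 0 under upper-quartile, library size and the stricter filter, -0.08 without bone marrow 3 and lung 1, and -0.06 to 0.13 with 1 left out. Without bone marrow 3 and lung 1, Dhcr7 was 0.03, Ebp 0.07 and Nr1h3 0.01; with 1 left out they ran from -0.14 to 0.01, -0.15 to 0.01 and -0.30 to 0.21. Soat1 ran from -0.35 to 1.52. In bone marrow against culture Soat1 was -0.35 with voom, -0.01 and -0.21 with the replicate block (9 and 6 libraries), -1.20 without bone marrow 3 and lung 1 (called, adjusted p = 0.00722) and -1.20 to 0.69 with 1 left out; in lung against culture it was -0.01 without those 2 and -0.02 to 0.52 with 1 left out.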
